A study of Mus musculus with 8 samples.

Results

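Progression from G2 into mitosis is driven by a set of genes that are transcribed in dividing cells: CDK1 and its cyclins, the kinases and phosphatases that switch CDK1 on or off, and the proteins that build the spindle, attach chromosomes and separate them. Their transcripts accumulate in G2, under the MuvB complex with B-MYB and FOXM1, and decay after division. In the colon, dividing cells sit in the lower crypt, as stem cells and transit-amplifying cells, and the kinase WEE1, which holds CDK1 inactive, is known as a target of the circadian clock. A list of 44 such genes was taken by symbol from the deposited expression table of 14247 genes, and all 44 were found and passed the filter on low values, among 13503 genes tested.

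The expression was measured by bulk RNA sequencing of crypts isolated from the large intestine of wild-type mice, labelled WT and colonic epithelial cell. Per the methods of the study, mice were on a C57BL/6 background, 2 to 4 months old and kept under 12 h of light and 12 h of dark. No agent and no allele other than WT is named for these groups. Sampling was done at ZT0, ZT6, ZT12 and ZT18, with 2 libraries each, zeitgeber time (ZT) being counted in h from lights on. Mice rest from ZT0 to ZT12 and are active from ZT12 on. The libraries are called replicate 1 and 2 after their labels, which do not say whether each is 1 animal, so p-values measure the spread between these libraries only. Captions in the study count mice and name a larger group size than the libraries used here, and any further libraries were not analysed here. Each held between 14722342 and 25159440 reads. Values are normalised counts, the read count of a gene divided by 1 size factor per library, and the smallest read count of any of the 44 genes in any library was 34.

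Epithelial markers such as Epcam and Krt8 were detected in every library, with 12 of 12 genes of that list above 0 reads throughout, whereas genes of other cell types were present to different degrees. The summed normalised count of 9 fibroblast genes was 17.9 and 792 (ZT0), 23.4 and 111 (ZT6), 2982 and 182 (ZT12) and 42.7 and 7.24 (ZT18), each pair given, here and for every gene, as replicate 1 and then replicate 2. That of 9 B and plasma cell genes was 215 and 3334 at ZT0, and that of 10 myeloid genes was 73.5 and 2218. In the other 6 libraries the former lay between 209 and 1474 and the latter between 162 and 823, both highest in ZT12 replicate 1. Sums over the 8 libraries ranged from 38.7 to 429 for 10 T cell genes, from 28.2 to 386 for 5 endothelial genes and from 35.4 to 3858 for 6 smooth muscle genes. ZT0 replicate 2 and ZT12 replicate 1 therefore stand apart, and the main results are also given without these 2 libraries. The share of mitochondrial reads ranged from 6.68% to 22.2%, and its part in the results was not tested. The labels name no batch.

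Before the values, promoters of a few of these genes are shown. Many G2/M promoters are known to carry CCAAT boxes, bound by NF-Y, and a cell cycle genes homology region (CHR), bound by MuvB. RefSeq promoter windows of mouse build GRCm38.p6 were matched by symbol for 36 of the 44 genes, with 39 windows in all. In the 250 bases before the start, CHR letters (TTTGAA or TTCGAA, both strands) were present in 17 of 39 windows, 43.6%, compared with 17.1% of 32851 windows of all genes. CCAAT on either strand was present in 29 windows, 74.4%, compared with 33.8% of all windows. Both occurred together in 41.0% of the windows of these genes and in 6.02% of all windows. The E-box CACGTG, the site of CLOCK and BMAL1, was found in 3 windows, 7.69%, those of Anln, Espl1 and Ttk, compared with 6.02% of all windows. The median GC content was 59.6% in these windows and 52.4% in all, so the base composition of the windows compared differed. A match describes letters and not binding. The 8 genes with no entry were Wee1, Ccna2, Tpx2, Kif20a, Aurkb, Cdc25c, Incenp and Foxm1.

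The windows of Cdk1 and Ube2c are given as promoters holding both motifs, those of Cenpa and Plk1 as promoters with CCAAT alone, Cenpa being the gene with the smallest adjusted p-value for a 24 h pattern and Plk1 a gene whose course differed, as described further on. The window of Cdk1 is chr10:69352913-69353162 on the minus strand, that of Ube2c chr2:164769679-164769928 on the plus strand, that of Cenpa chr5:30666636-30666885 on the plus strand and that of Plk1 chr7:122159185-122159434 on the plus strand. Capitals mark CHR and CCAAT letters on either strand, and in Ube2c a CCAAT and its reverse complement overlap.
Cdk1: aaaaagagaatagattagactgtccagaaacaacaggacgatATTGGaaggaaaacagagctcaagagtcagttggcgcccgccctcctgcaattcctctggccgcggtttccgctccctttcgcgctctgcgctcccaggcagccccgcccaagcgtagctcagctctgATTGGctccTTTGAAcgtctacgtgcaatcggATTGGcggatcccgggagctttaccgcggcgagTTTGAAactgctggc
Ube2c: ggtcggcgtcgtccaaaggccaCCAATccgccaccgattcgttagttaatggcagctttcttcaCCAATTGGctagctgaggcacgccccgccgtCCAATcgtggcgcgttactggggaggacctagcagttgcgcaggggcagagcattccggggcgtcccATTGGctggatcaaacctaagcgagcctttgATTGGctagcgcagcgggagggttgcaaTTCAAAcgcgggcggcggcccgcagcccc
Cenpa: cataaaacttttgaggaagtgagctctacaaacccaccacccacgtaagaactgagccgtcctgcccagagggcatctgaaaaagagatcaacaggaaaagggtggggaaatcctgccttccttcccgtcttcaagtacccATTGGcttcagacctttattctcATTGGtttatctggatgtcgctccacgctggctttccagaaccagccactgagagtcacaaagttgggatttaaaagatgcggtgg
Plk1: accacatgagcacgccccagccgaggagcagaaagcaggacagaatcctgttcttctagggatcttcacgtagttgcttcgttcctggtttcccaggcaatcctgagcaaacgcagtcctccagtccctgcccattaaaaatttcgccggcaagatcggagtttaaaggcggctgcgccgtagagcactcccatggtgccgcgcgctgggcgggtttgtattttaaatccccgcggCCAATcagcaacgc

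Across the 44 genes, levels were high in both ZT0 libraries and lower at the other time points. The median deviation from a gene's own mean, on the log2(normalised count + 1) scale, was 0.73 in ZT0 replicate 1 and 0.42 in replicate 2. It was 0.09 and -0.18 for the ZT6 pair, -0.30 and -0.20 for the ZT12 pair, and -0.25 and -0.11 for the ZT18 pair. Over all genes tested the median lay between 0.00 and 0.03 in every library. Of the 44 genes, 43 were above their own mean in each ZT0 library, compared with between 4 and 30 in the other libraries. Of all genes tested, 51.5% were above their own mean in ZT0 replicate 1 and 53.1% in replicate 2. The highest library was ZT0 replicate 1 for 32 genes and ZT0 replicate 2 for 10, compared with 11.4% and 13.7% of all genes tested.

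**Figure D1:**
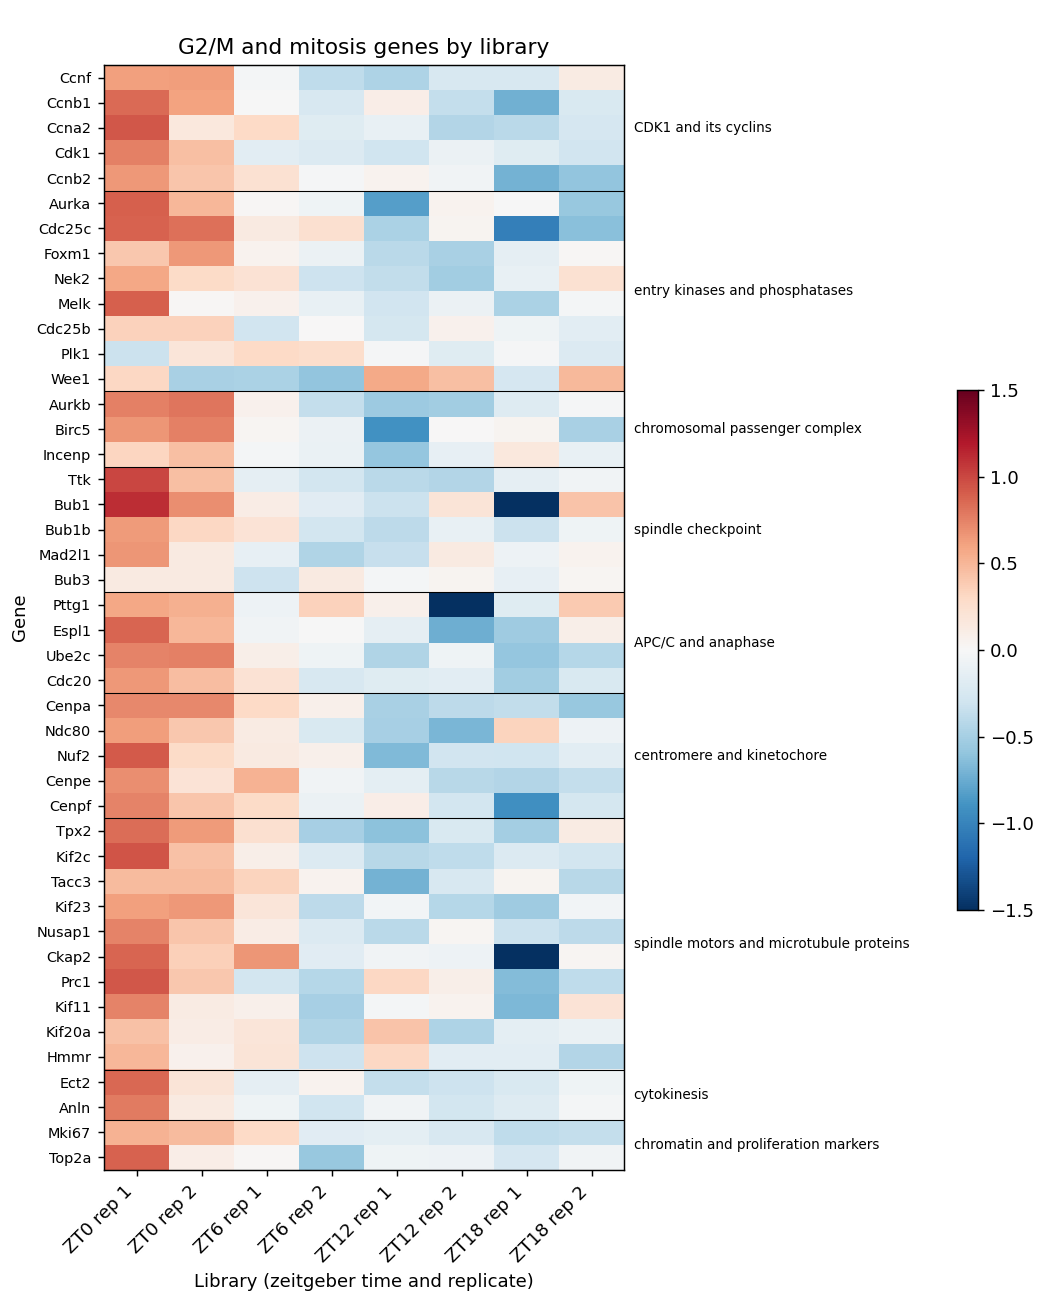
Heat map of the 44 genes (rows, grouped by role) in the 8 libraries (columns), coloured by log2(normalised count + 1) minus the gene's mean over the libraries, with the scale ending at -1.5 and 1.5. Red fills both ZT0 columns for all genes except Plk1 in replicate 1 and Wee1 in replicate 2, and most of the remaining columns are pale or blue.

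Both ZT0 libraries were above each of the other 6 for 34 of the 44 genes, a pattern found in 3.63% of all genes tested; this grouping was chosen after the values were seen and is a description. The 10 genes without it were Wee1, Ccna2, Plk1, Mad2l1, Kif11, Kif20a, Cenpe, Hmmr, Ckap2 and Melk. The count was 42 of 44 without ZT0 replicate 2 and ZT12 replicate 1, although with a lone ZT0 library 16.1% of all genes tested then had the pattern. In ZT0 replicate 1, the library where the median was highest, 7 of 10 T cell genes and 4 of 9 fibroblast genes were at 0 reads. Fibroblast genes at 0 reads also numbered 4 in both ZT6 libraries and in ZT18 replicate 1, and 6 in ZT18 replicate 2. T cell genes at 0 reads numbered at most 3 in any other library. Crypts with fewer cells in G2 and mitosis cannot be told apart from less RNA of these genes per cell.

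The study asked which transcripts follow a 24 h rhythm, and a 24 h cosine was fitted to each gene with limma on log2(normalised count + 1). After Benjamini-Hochberg adjustment over all genes, 0 of the 44 genes were called, and 0.118% of all genes were. At an unadjusted p under 0.05 there were 25 of 44 genes, compared with 9.15% of all genes tested. Unadjusted counts were 26 in edgeR and 28 in DESeq2, both run on reads recovered from the values, compared with 8.52% and 10.2% of all genes. Adjusted calls were 0 in edgeR, which called 0.0889% of all genes, and 3 in DESeq2 (Cenpa, Aurkb and Foxm1), which called 1.4% of all genes. The count of 25 fell when either ZT0 library was left out, and when ZT0 replicate 2 and ZT12 replicate 1 were left out together. Such fits have fewer libraries for every gene. Scaling the libraries to epithelial markers gave 14. The shares of all genes under these settings are not given here, so a fall particular to the 44 genes cannot be read from these counts.

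All 25 genes had their fitted peak within 4 h of ZT0, which held for 37.8% of the 1235 genes of the whole table at that p. Over all genes regardless of p, 42 of the 44 and 34.3% of those tested peaked there. The fitted amplitude, from mean to peak on the log2 scale, had a median of 0.46 over the 44 genes and of 0.23 over all genes tested. It ranged from 0.07 in Bub3 to 0.74 in Cdc25c. Wee1, with a peak at 15.1 h, and Plk1, with a peak at 5.71 h, were the 2 genes that peaked farther from ZT0.

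An exact two-sided rank test against cosine orders, in the manner of JTK, gave p = 0.0190 within a gene, the smallest it can give with 8 libraries, for Aurkb, Kif2c, Ect2, Ttk, Foxm1, Nek2, Ndc80 and Incenp. These are 8 of 44 genes, compared with 2.06% of all genes under 0.05. The smallest adjusted p over all genes was 0.877, so no gene passed. Because p cannot fall below 0.0190, adjustment over 13503 genes could pass a gene only if very many reached that p together. The test was also run with libraries left out. Without a ZT0 or ZT12 library it cannot give a p under 0.05 for an order with its peak or trough at ZT0. The counts of such runs therefore say nothing about dependence on those libraries.

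Pairs of time points were compared in a limma fit with 1 mean per time point over all 8 libraries. Relative to ZT0, the median difference of the 44 genes on the log2 scale was -0.57 at ZT6, -0.81 at ZT12 and -0.83 at ZT18, compared with 0.0069, 0.015 and -0.0033 over all genes. These contrasts share the ZT0 libraries. No gene of the 44 passed the adjusted threshold at ZT6, ZT12 or ZT18, where 0.0444%, 0.0667% and 0% of all genes were called in either direction. Genes lower at an unadjusted p under 0.05 numbered 17 at ZT6, 30 at ZT12 and 30 at ZT18, against 1.98%, 4.95% and 2.56% of all genes. Both libraries lay below both ZT0 libraries for 36 genes at ZT6, 39 at ZT12 and 41 at ZT18, compared with 18.7%, 20.3% and 13.9% of all genes.

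At ZT12 the fitted value was below that at ZT0 for 43 of 44 genes, Wee1 being the exception, whereas 48.6% of all genes tested were below. The fitted standard error (SE) ranged from 0.19 in Mki67 to 0.67 in Bub1. In DESeq2 on recovered reads, Ube2c, Cenpa and Aurkb were called lower at ZT12, and Ube2c, Cenpa, Ccnb2 and Mki67 lower at ZT18. At ZT6 DESeq2 called 0 of the 44. Of all genes DESeq2 called 0.185% at ZT6, 0.97% at ZT12 and 0.415% at ZT18, in either direction, more than limma in each case. edgeR called 0 of the 44 genes in any contrast, and 0.037%, 0.037% and 0% of all genes at ZT6, ZT12 and ZT18. Its unadjusted counts were 18, 31 and 29 of the 44, compared with 4.15%, 9.8% and 5.11% of all genes. Between ZT6, ZT12 and ZT18 themselves the differences were smaller. Their medians were -0.24 for ZT12 against ZT6, -0.18 for ZT18 against ZT6 and -0.03 for ZT18 against ZT12. None of the 44 genes was called in limma, edgeR or DESeq2 in these 3 contrasts. Of all genes limma called 0%, 0.0444% and 0.0296%. Of the 13503 genes tested, edgeR called 0, 7 and 1, and DESeq2 called 44, 68 and 101. Unadjusted p-values under 0.05 in limma were found for 3, 7 and 2 of the 44 genes. The shares of all genes at that p were 6.78%, 6.71% and 9.03%, so the first count was at the background, the second above it and the third below it.

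**Figure D2:**
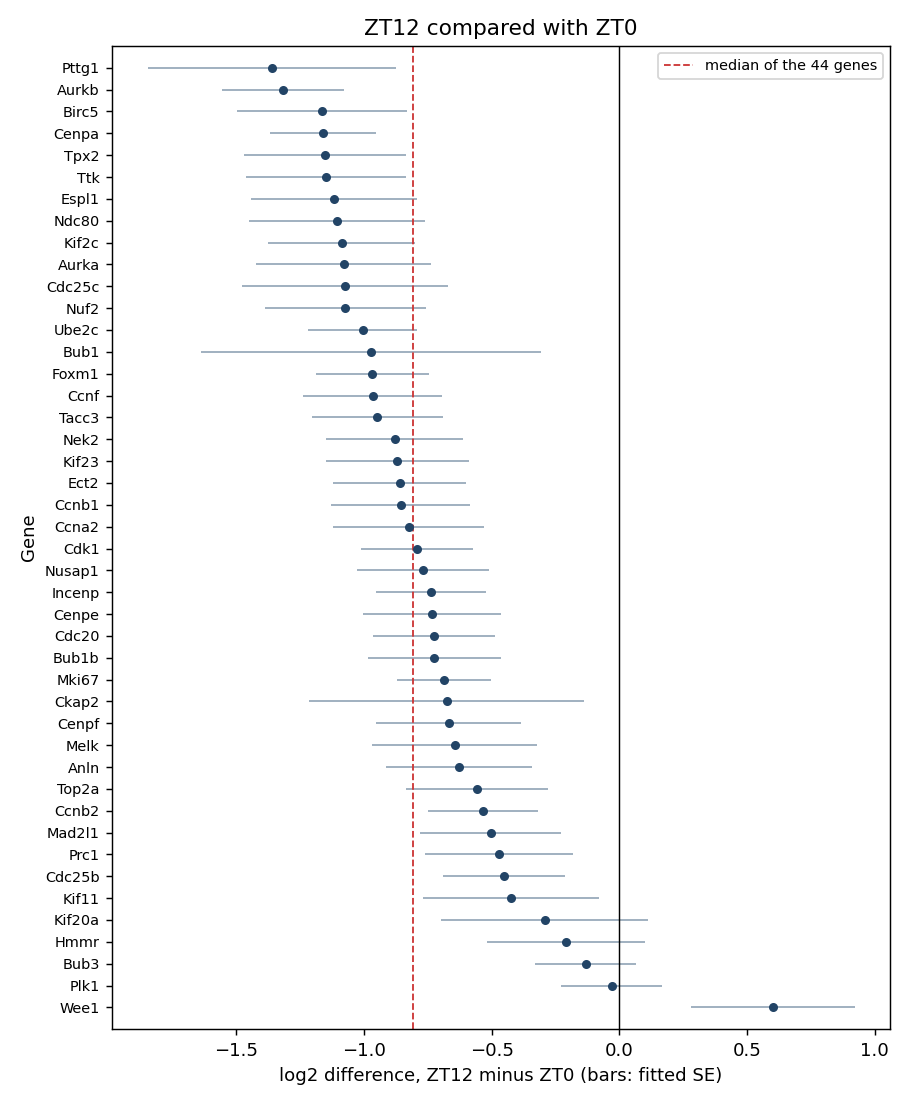
Difference between ZT12 and ZT0 for each of the 44 genes (rows) on the log2(normalised count + 1) scale (horizontal axis), with bars for the fitted SE and a dashed line at the median of -0.81. All points except Wee1 lie below 0, from Pttg1 at -1.36 to Plk1 at -0.03.

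CDK1 and its cyclins form the engine of mitotic entry. Cdk1, the kinase, had 554 and 447 normalised counts at ZT0, next to 294 and 284 at ZT6, 266 and 309 in the ZT12 libraries and 289.7 and 269 in those of ZT18. Ccnb1, cyclin B1, had normalised counts of 530.4 and 449.6 (ZT0), 293 and 250.2 (ZT6), 316 and 229 (ZT12) and 178 and 252 (ZT18). Ccnb2, cyclin B2, had 532 and 451 normalised counts at lights on, 395 and 334 in the ZT6 pair, 351 and 326 in the ZT12 pair and 206 and 224 in the ZT18 pair. For all 3 the ZT0 libraries were above every other library, and Ccnb2 had its lowest values at ZT18. Ccna2, cyclin A2, had 799.6 and 465 normalised counts at ZT0, next to 513 and 369 at ZT6, 386 and 307 in the ZT12 libraries and 314 and 351 in those of ZT18. Ccnf, cyclin F, which serves as a ubiquitin ligase subunit, had normalised counts of 288 and 290.1 (ZT0), 184 and 144 (ZT6), 137 and 159 (ZT12) and 159 and 205 (ZT18). In Ccna2 the ZT0 libraries were far apart and ZT6 replicate 1 was above ZT0 replicate 2. The differences at ZT12 from ZT0 were -0.79 ± 0.22 (SE) for Cdk1 and -0.86 ± 0.27 for Ccnb1, with limma adjusted p of 0.358 and 0.388.

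The second group holds the regulators of entry. Wee1 codes for the kinase that phosphorylates CDK1 and delays mitosis, and it had 483 and 277 normalised counts at lights on, 281 and 259 in the ZT6 pair, 579 and 533 in the ZT12 pair and 326 and 547 in the ZT18 pair. Both ZT12 libraries were above both ZT6 libraries, while replicates at ZT0 and at ZT18 were far apart. The amplitude of Wee1 was 0.44 and its adjusted p for the cosine was 0.584. ZT12 was higher than ZT0 by 0.60 ± 0.32 (SE) on the log2 scale, with adjusted p = 0.556, and higher than ZT6 by 1.04, with adjusted p = 0.705. The amplitude was between 0.33 and 0.63 over all alternatives, and it passed in none of them. Wee1 lies on chromosome 7 at positions 110122046 to 110143286 of GRCm38.

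Clock references measured in the same libraries show the size of a called pattern. Dbp, an output gene of the clock, had 26.8 and 21.5 normalised counts at ZT0, next to 482 and 361 at ZT6, 1593 and 1113 in the ZT12 libraries and 89.7 and 88.5 in those of ZT18. Its libraries did not overlap between ZT12 and any other time point, and it peaked at 10.6 h with an amplitude of 3.07 and adjusted p = 4.01e-05. Per2, which like Wee1 is a known clock target, had an amplitude of 1.42, a peak at 15.6 h and adjusted p = 0.0123. Nr1d1 was also called, with an amplitude of 2.17 and adjusted p = 0.00238. Arntl, which codes for BMAL1, had an amplitude of 0.92 with a peak at 23.5 h and did not pass, with adjusted p = 0.0831.

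Cdc25c, a phosphatase that removes the WEE1 mark from CDK1, had normalised counts of 121 and 117 (ZT0), 71.5 and 77.2 (ZT6), 46.8 and 66.9 (ZT12) and 31.6 and 41.8 (ZT18). It had the largest amplitude of the 44 genes and the lowest level per kb of exon, 14.6. Aurka, a centrosomal kinase, had 453 and 344 normalised counts at lights on, 248 and 233 in the ZT6 pair, 137 and 254 in the ZT12 pair and 243 and 164 in the ZT18 pair. Foxm1, the transcription factor of the G2/M programme, had 380.4 and 449.6 normalised counts at ZT0, next to 297 and 269.8 at ZT6, 217 and 205 in the ZT12 libraries and 261 and 290.3 in those of ZT18. In all 3 both ZT0 libraries were highest, and Foxm1 showed its lowest values at ZT12 rather than ZT18. Nek2, a kinase that separates centrosomes, had normalised counts of 425 and 347 (ZT0), 331 and 228 (ZT6), 220.0 and 197 (ZT12) and 262 and 333 (ZT18). ZT12 replicate 2 was its lowest library and the ZT18 libraries were close to those of ZT6.

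Plk1, a kinase needed throughout mitosis, was the gene of highest level per kb, 956 normalised counts per kb of exon on average, or 3.22 times the value of Mki67, the next gene. It had 1659 and 2365 normalised counts at lights on, 2550.3 and 2498 in the ZT6 pair, 2059.9 and 1829 in the ZT12 pair and 2051 and 1805 in the ZT18 pair. Its ZT0 libraries were far apart, and both ZT6 libraries were above all others. The difference between ZT12 and ZT0 was -0.03 ± 0.20 (SE), with adjusted p = 0.968, and its sign turned in 5 of 22 alternatives. Plk1, on chromosome 7 at 122159439 to 122169873, shares an exon stretch on the opposite strand with the annotated gene Gm44985.

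**Figure D3:**
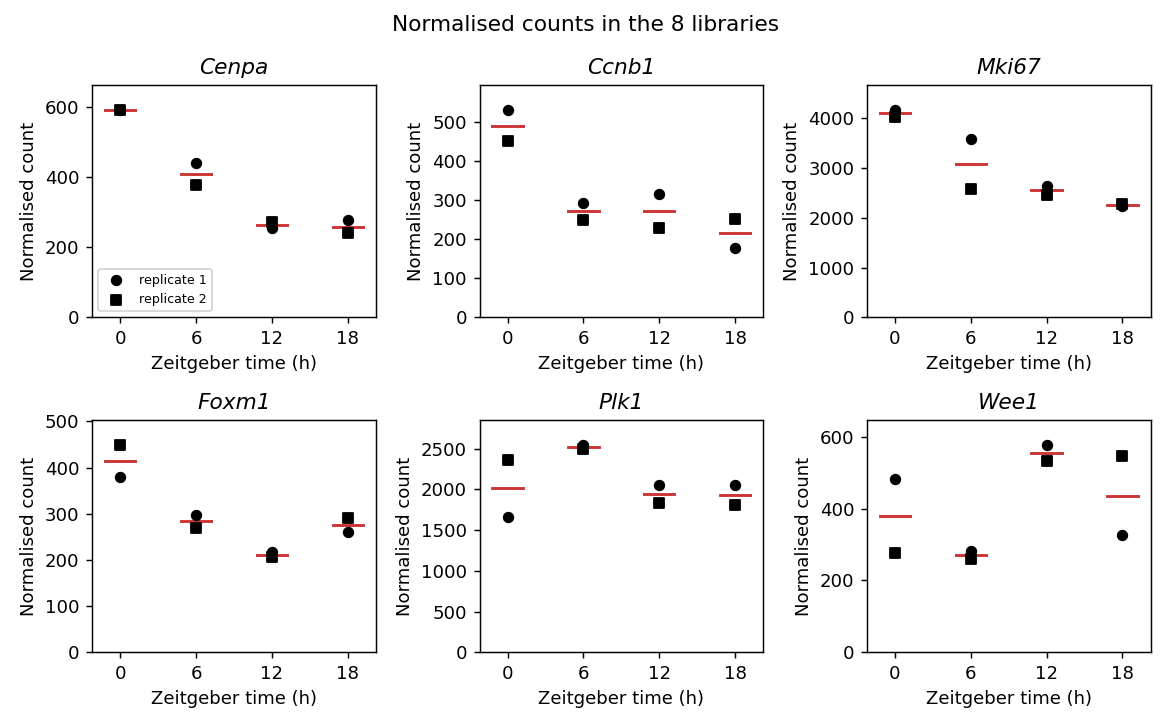
Normalised counts (vertical axes, from 0) of Cenpa, Ccnb1, Mki67, Foxm1, Plk1 and Wee1 against zeitgeber time in h, with 1 circle or square per library and a red bar at the mean of each time point (n = 2). The first 4 genes are highest in both ZT0 libraries, Plk1 is highest at ZT6 and Wee1 has its highest mean at ZT12.

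The chromosomal passenger complex corrects faulty attachments of chromosomes and then directs cytokinesis. Aurkb, its kinase, had 452 and 468 normalised counts at ZT0, next to 279.7 and 209 at ZT6, 183 and 186 in the ZT12 libraries and 234 and 265 in those of ZT18. Birc5, or survivin, had normalised counts of 391 and 419.7 (ZT0), 253 and 232 (ZT6), 131 and 248 (ZT12) and 254 and 176 (ZT18). Incenp, the scaffold, had 697 and 760.2 normalised counts at lights on, 542 and 517 in the ZT6 pair, 372 and 512 in the ZT12 pair and 622 and 515 in the ZT18 pair. In all 3 genes the ZT0 libraries did not overlap with any other library, and the lowest library was at ZT12. Aurkb had an amplitude of 0.66, a peak at 23.9 h and an adjusted p of 0.274. At ZT12 it differed from ZT0 by -1.32 ± 0.24 (SE), with limma adjusted p = 0.176.

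Genes of the spindle checkpoint delay anaphase until every chromosome is attached. Ttk, the kinase that starts the signal, had 249 and 169.8 normalised counts at ZT0, next to 113 and 102 at ZT6, 93.6 and 91.1 in the ZT12 libraries and 113 and 119.8 in those of ZT18. Bub1, a kinase at the kinetochore, had normalised counts of 265 and 199 (ZT0), 132 and 109 (ZT6), 97.4 and 139.5 (ZT12) and 29.1 and 165 (ZT18). Bub3, its binding partner, had 752 and 756 normalised counts at lights on, 551 and 751 in the ZT6 pair, 671 and 704 in the ZT12 pair and 629 and 701 in the ZT18 pair. In Ttk and Bub1 both ZT0 libraries stood clear of the rest, whereas Bub3 stayed within a narrow range and had the smallest amplitude of the 44 genes. The value of Bub1 in ZT18 replicate 1 came from 34 reads and was far below that of replicate 2.

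The APC/C, a ubiquitin ligase, and its targets start anaphase. Cdc20, its activator, had 546 and 478 normalised counts at ZT0, next to 405 and 294 at ZT6, 305 and 312 in the ZT12 libraries and 242 and 295 in those of ZT18. Ube2c, its ubiquitin-conjugating enzyme, had normalised counts of 713 and 720.1 (ZT0), 453 and 408 (ZT6), 311 and 409 (ZT12) and 285 and 318 (ZT18). Both had their ZT0 libraries on top, and those of Ube2c were nearly equal. Pttg1, securin, had 472 and 457 normalised counts at lights on, 297 and 400.3 in the ZT6 pair, 331 and 98.0 in the ZT12 pair and 277 and 413 in the ZT18 pair. Espl1, separase, which securin holds inactive, had 352 and 270.5 normalised counts at ZT0, next to 185 and 191 at ZT6, 174 and 115 in the ZT12 libraries and 132 and 204 in those of ZT18. Pttg1 had an amplitude of 0.68, and its value in ZT12 replicate 2 was far below that of replicate 1. At ZT12 Ube2c differed from ZT0 by -1.004 ± 0.21 (SE), with adjusted p = 0.263.

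At the centromere, Cenpa codes for the histone H3 variant that marks it. Cenpa had normalised counts of 590.0 and 591 (ZT0), 441 and 379 (ZT6), 256 and 272 (ZT12) and 278 and 240.5 (ZT18). Replicates were close at every time point, and the ZT12 and ZT18 libraries were all below the ZT6 libraries. Its mean was 591 ± 0.961 (SD, n = 2) at ZT0 and 264 ± 11.7 (SD, n = 2) at ZT12, so that ZT12 stood at 44.7% of ZT0 on the fitted scale. Cenpa had the smallest cosine adjusted p of the 44 genes, 0.223, and the smallest for ZT12 against ZT0, 0.167. It lies on chromosome 5 at 30666777 to 30674830 in GENCODE M21, whose start falls inside the RefSeq promoter window printed for it. The same held for Cdk1 and Ube2c, whose GENCODE starts are 69352938 (minus strand) and 164769898. Some bases printed for these genes therefore lie past the GENCODE start.

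Cenpe, a kinetochore motor, had 599 and 425 normalised counts at lights on, 529.8 and 356 in the ZT6 pair, 334 and 276 in the ZT12 pair and 271 and 287 in the ZT18 pair. Ndc80 and Nuf2 are subunits of the complex that binds microtubules. Ndc80 had 150.0 and 129 normalised counts at ZT0, next to 106 and 82.7 at ZT6, 68.4 and 59.95 in the ZT12 libraries and 123 and 91.7 in those of ZT18. Nuf2 had normalised counts of 290.0 and 187 (ZT0), 168 and 161 (ZT6), 96.4 and 126 (ZT12) and 125 and 137 (ZT18). Both genes had their lowest library at ZT12, whereas Cenpe was lowest in ZT18 replicate 1.

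Motors and microtubule proteins shape the spindle. Tpx2, which activates Aurora A on the spindle, had 618 and 536 normalised counts at lights on, 408 and 244 in the ZT6 pair, 226 and 295 in the ZT12 pair and 243 and 376 in the ZT18 pair. Kif2c, a microtubule depolymerase, had 315 and 223 normalised counts at ZT0, next to 174 and 141 at ZT6, 123 and 126 in the ZT12 libraries and 142 and 135 in those of ZT18. Tacc3, which stabilises spindle fibres, had normalised counts of 479.7 and 480.4 (ZT0), 435 and 358 (ZT6), 212 and 292 (ZT12) and 355 and 258 (ZT18). In these 3 genes the ZT0 libraries were highest, Tacc3 with ZT6 replicate 1 near them. Kif20a, a motor of the spindle midzone, had 146 and 116 normalised counts at lights on, 122 and 78.3 in the ZT6 pair, 145 and 77.2 in the ZT12 pair and 96.6 and 99.7 in the ZT18 pair. Hmmr, a spindle assembly factor, had 295 and 217 normalised counts at ZT0, next to 238 and 168 at ZT6, 258 and 186 in the ZT12 libraries and 186 and 154 in those of ZT18. In both of these the time points overlapped, and their amplitudes of 0.15 and 0.16 were the smallest after Bub3. Among genes of cytokinesis, Ect2, which activates RhoA at the division plane, had normalised counts of 597 and 377 (ZT0), 301 and 341 (ZT6), 257 and 265 (ZT12) and 280.3 and 315 (ZT18).

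Mki67 and Top2a are widely used as markers of dividing cells. Mki67, which coats mitotic chromosomes, had 4158 and 4021 normalised counts at lights on, 3574 and 2575 in the ZT6 pair, 2628 and 2458 in the ZT12 pair and 2238 and 2268 in the ZT18 pair. Top2a, the topoisomerase that untangles them, had 2402 and 1387 normalised counts at ZT0, next to 1319 and 875 at ZT6, 1245 and 1235 in the ZT12 libraries and 1093 and 1256 in those of ZT18. The Mki67 libraries at ZT0 were 4089 ± 96.7 (SD, n = 2) on average and those at ZT18 were 2253 ± 21.4 (SD, n = 2), a difference of -0.86 ± 0.19 (SE) on the log2 scale with limma adjusted p = 0.493. In Top2a, ZT0 replicate 1 was far above the rest, and ZT0 replicate 2 exceeded ZT6 replicate 1 by a small margin only.

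The remaining 11 genes were Bub1b, Mad2l1, Cdc25b, Kif11, Kif23, Cenpf, Nusap1, Prc1, Anln, Ckap2 and Melk, with normalised counts between 36.7 and 651 in single libraries. Their difference between ZT12 and ZT0 ranged from -0.87 to -0.42. In 7 of the 11, both ZT0 libraries were above every other library, compared with 3.63% of all genes tested. Ckap2 had an amplitude of 0.62, close to that of Bub1, and a low value in ZT18 replicate 1. Exons of 11 of the 44 genes overlap a gene on the opposite strand, among them Ccna2 with Exosc9, Cdc20 with Elovl1, Kif20a with Cdc23 and Ube2c with Tnnc2. Since strand use in counting is not stated, reads of such pairs cannot be told apart.

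Other lists of cell cycle genes were described in the same way. Of 70 further mitotic genes, 65 had a lower fitted value at ZT12 than ZT0, compared with 48.6% of all genes tested. Their median difference was -0.62. An unadjusted cosine p under 0.05 was found for 21, compared with 9.15% of all genes tested. None of the 70 was called. Cdca3, an F-box cofactor of mitotic entry, had normalised counts of 985 and 1015 (ZT0), 891 and 578 (ZT6), 350.2 and 466 (ZT12) and 497 and 458 (ZT18). Cdca8, borealin of the passenger complex, had 501 and 397 normalised counts at lights on, 292 and 268 in the ZT6 pair, 174 and 239 in the ZT12 pair and 232 and 265 in the ZT18 pair. Both were highest at ZT0 and lowest in ZT12 replicate 1.

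S phase genes, which copy DNA before G2, were set beside them. The median deviation of 55 tested genes was 0.26 and 0.02 (ZT0), -0.25 and -0.25 (ZT6), -0.36 and -0.07 (ZT12) and 0.26 and 0.35 (ZT18). ZT18 was higher than ZT6 for 53 of 55 genes, with a median of 0.55, whereas the median of the 44 G2/M genes for that contrast was -0.18. Over all genes tested, 6540 of 13503 were higher at ZT18 than at ZT6, with a median of -0.012. Mcm6, a subunit of the replicative helicase, had 977 and 728 normalised counts at ZT0, next to 585 and 589.6 at ZT6, 730.3 and 815 in the ZT12 libraries and 1234 and 1071 in those of ZT18. Pold1, the catalytic subunit of polymerase delta, had normalised counts of 565 and 514 (ZT0), 260.0 and 359 (ZT6), 313 and 349 (ZT12) and 694 and 549 (ZT18). Both ZT18 libraries of Mcm6 were its highest. None of the 55 was called, and 19 had an unadjusted cosine p under 0.05, compared with 9.15% of all genes tested. The difference between the courses of the S phase and G2/M lists was not tested.

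**Figure D4:**
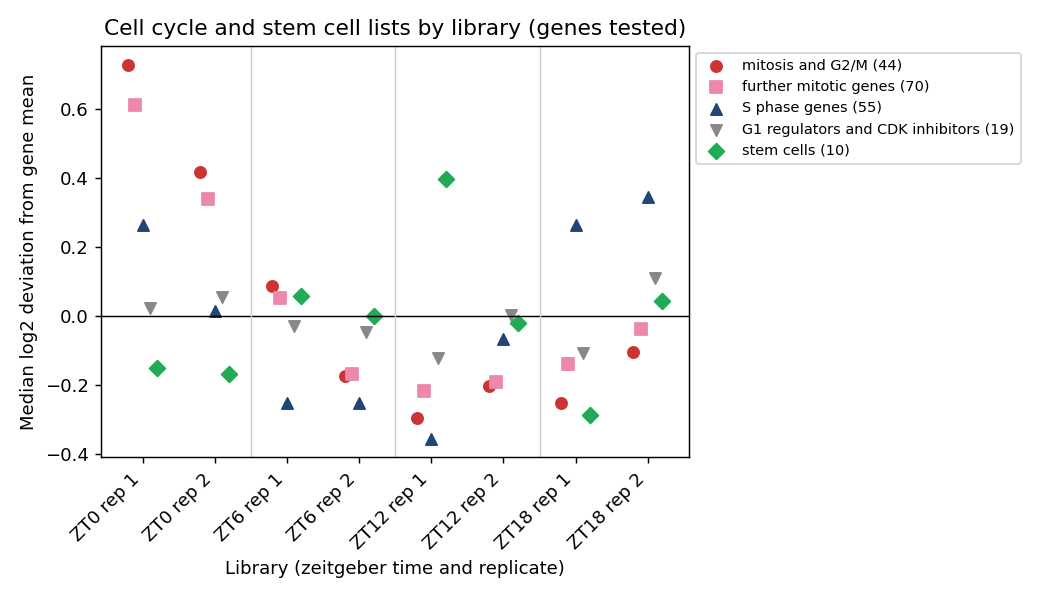
Median deviation from the gene mean (vertical axis, log2 scale) in each library (horizontal axis) for the 44 G2/M genes, 70 further mitotic genes, 55 S phase genes, 19 G1 regulators and 10 stem cell markers. Mitotic lists stand highest at ZT0, the S phase list has its highest median in ZT18 replicate 2, and the stem cell list reaches 0.40 in ZT12 replicate 1.

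Library medians of the regulator lists spanned a narrower range than those of the G2/M genes. For 19 G1 regulators and CDK inhibitors the library medians lay between -0.12 and 0.11, and for 17 APC/C genes between -0.21 and 0.18. Cdkn2b, the CDK inhibitor p15, had 1730.3 and 1578 normalised counts at lights on, 1655 and 2044 in the ZT6 pair, 1055 and 1350.1 in the ZT12 pair and 1323 and 1135 in the ZT18 pair. Rb1, the retinoblastoma protein that restrains E2F, had 773 and 746 normalised counts at ZT0, next to 1099 and 1052 at ZT6, 1141 and 1279 in the ZT12 libraries and 753 and 1077 in those of ZT18. Rb1 was low in both ZT0 libraries and in ZT18 replicate 1. Of the APC/C genes, Ube2s, a chain-elongating enzyme, had normalised counts of 1026 and 849 (ZT0), 641 and 635 (ZT6), 419 and 559 (ZT12) and 719 and 505 (ZT18). Cdc16, a core subunit, had 806 and 714 normalised counts at lights on, 853 and 804 in the ZT6 pair, 652 and 620.3 in the ZT12 pair and 528 and 538 in the ZT18 pair. Ube2s was highest at ZT0 and Cdc16 was lowest at ZT18. Among 7 DREAM and MuvB subunits the medians were between -0.24 and 0.20. Tfdp1, the partner of E2F factors, had 1209 and 1195 normalised counts at ZT0, next to 869.8 and 941 at ZT6, 1013 and 1188 in the ZT12 libraries and 1176 and 1441 in those of ZT18. Lin54, the CHR-binding subunit of MuvB, had normalised counts of 337 and 430.0 (ZT0), 344 and 401 (ZT6), 459.7 and 419 (ZT12) and 438 and 561 (ZT18). Lin54 was lowest in ZT0 replicate 1, and none of these genes was called.

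The stem cell list, with Lgr5 and Ascl2, had medians of -0.15 and -0.17 in the ZT0 libraries, below its own mean level. Across the 8 libraries the median of its 10 genes ranged between -0.29 and 0.40, and those of the 12 epithelial markers between -0.18 and 0.22.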

How the data were processed

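The authors isolated crypts from mouse large intestine with EDTA and scraping, made paired-end libraries of the RNA, mapped the reads to GRCm38 by STAR and used DESeq2, per the methods; the counting tool, annotation and strand setting are not given in the sources used here. The labels and the methods name different library kits. The authors deposited 1 table, in which each value is a signal, the read count divided by 1 size factor per library. Its remaining columns hold the authors' own fold change and test and were not used. In 7 libraries whole reads were recovered from the steps of low values and checked; in ZT0 replicate 1 the step is close to 1, so that the automatic check could not be applied, but 100% of its values too were whole multiples of that step within 0.1 read. Count tests on these reads are alternatives only.

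Symbols were taken from the table, and 14239 of 14247 identifiers matched GENCODE M21. Genes with a mean of at least 10 normalised counts were tested (13503) on log2(normalised count + 1) with limma 3.58.1 (trend, R 4.3.3), with Benjamini-Hochberg adjustment over all of them and a threshold of 0.05. Fold differences on that scale understate the change of low genes. A count of 0 allows up to 3 reads, and such limits cover counting error only. edgeR 4.0.16, DESeq2 1.42.0, other filters, pseudocounts and scalings, a replicate block and the removal of libraries were tried. Scripts were tested on simulated data. The 44 genes, the lists and the tests were chosen with earlier results of these data known. Values in every library are given for Wee1, Mki67, Top2a, Ccnb1, Cdk1, Plk1, Foxm1 and Bub3, for the 5 largest and 3 smallest amplitudes, for genes with an unadjusted cosine p under 0.05 and for the highest and lowest level per kb; in other lists the 2 smallest cosine p-values choose the genes. Counts by sign, by unadjusted p and of both ZT0 libraries above the rest were added after seeing the data. Figures used matplotlib 3.10.9.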

Additional observations from a re-analysis of the deposited data

How the results depend on the processing

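Each time point had 2 libraries, and every one of the 44 genes had at least 34 reads in each library. Adjusted calls among the 44 genes stayed at 0 in every alternative except DESeq2 on recovered reads, which gave 3 for the cosine and, relative to ZT0, 3 at ZT12 and 4 at ZT18. Over all 13503 genes DESeq2 called 189, 131 and 56 there, against 16, 9 and 0 in limma. The count of genes with an unadjusted cosine p under 0.05, 25 as reported, was 14 when libraries were scaled to epithelial markers, 8 without both libraries highest in non-epithelial markers, and 8 to 28 when 1 library was left out. It was 21 with the replicate block. The shares of all genes at that p under these settings are not given here. A change particular to the 44 genes therefore cannot be read from these cosine counts. The correlations of deviations between equal numbers ran from -0.29 to 0.22. They cannot show whether libraries of equal number share a batch, and libraries were treated as unpaired. The block changed no call.

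The rank test count of 8 was 1 when scaled to epithelial markers, 0 without both libraries, and 0 to 10 with 1 library left out. The median difference from ZT0 moved to -0.73 at ZT6 and -0.99 at ZT18 without both libraries. With 1 library left out it ran from -0.74 to -0.43 at ZT6, from -0.95 to -0.65 at ZT12 and from -0.99 to -0.64 at ZT18. Genes lower at ZT12 than at ZT0 numbered 40 to 43. The ZT12 difference of Plk1 turned to 0.019 when scaled to epithelial markers, 0.10 after removal of the trend with GC content and length, 0.14 without both libraries, 0.23 without ZT0 replicate 2 and 0.06 without ZT12 replicate 2. That of Hmmr turned to 0.011 without ZT0 replicate 1 and 0.029 without ZT12 replicate 2, and that of Kif20a to 0.16 without ZT12 replicate 2. With 1 library left out, the lowest values of Plk1, Hmmr and Kif20a were -0.29, -0.446 and -0.74. The other 41 genes kept their direction in all 22 alternatives with that contrast; the cause of these moves was not tested. Both ZT0 libraries were above the rest for 35 or 36 genes in 3 other scalings, where 3.94% to 5.96% of all genes tested had the pattern. Without 1 library of another time point it was 34 to 38 genes, and 4.32% to 6.64% of all genes. With 1 ZT0 library left, that library was above the rest for 34 genes without replicate 1 and 42 without replicate 2. The pattern then held for 15.6% and 13% of all genes, compared with 3.63% as reported.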
